A study of Homo sapiens with 13 samples.

Results

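The genes described here are 9 transcriptional targets of the tumour suppressor p53: MDM2, GDF15, SESN1, SESN2, BBC3, FAS, RRM2B, TP53I3 and BTG2. They were taken by gene symbol from the 38369 gene rows of the deposited tables, and all 9 passed the filter on low values (at least 1 FPKM in 2 libraries of the over-expression experiment or 1 of the time course). The gene of p53 itself was not among them. The row of FAS also carries the symbol STAMBPL1, a neighbouring deubiquitinase gene, so its values are the sum of both and are called the FAS and STAMBPL1 row. The rows are whole loci on hg19 and some span neighbours. MDM2 is at chr12:69201971-69239211, GDF15 at chr19:18492998-18501240 and BBC3 at chr19:47723780-47736023. SESN1 is at chr6:109307647-109415277 and SESN2 at chr1:28586006-28609001. The FAS and STAMBPL1 row spans chr10:90640026-90775541. The row of RRM2B spans chr8:103216732-103251346, that of TP53I3 chr2:24299728-24414566 and that of BTG2 chr1:203096836-203320289. All 9 are intervals of rows and can be wider than the gene itself. Whether genes not named in a row add to its values was not checked.

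The study followed the transformation of a breast epithelial line by the Src kinase and the effect of over-expressing the long non-coding RNA LINC00520, using polyA-selected RNA sequencing. MCF10A, a human breast epithelial line, is immortal but forms no tumours, although the labels give its cell type as breast cancer. In parental MCF10A, 2 libraries transduced with LINC00520 were set against 3 untransduced libraries, which the labels also describe as mock transduced, all taken at 72 h. MCF10A-Src cells carry an introduced Src kinase that tamoxifen switches on, and were sampled at 0 h (1 library), 4 h (2 libraries), 12 h (1 library) and 36 h (2 libraries) of tamoxifen. The vector of the transduction, whether replicates were separate cultures and any pooling of clones are not stated in the labels. The 2 libraries of a control lincRNA were not analysed here, so an effect of LINC00520 and one of transduction cannot be told apart. No cells were sampled without tamoxifen at 4, 12 or 36 h, so Src activation and time in culture cannot be told apart either.

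p53 is a transcription factor that is held low by the ubiquitin ligase MDM2 and is stabilised by DNA damage and other stresses. It then activates genes of cell cycle arrest, DNA repair, metabolism and cell death, and it activates MDM2 too, which closes a negative feedback loop. Several of these genes answer to other factors as well: SESN2 and GDF15 are also known targets of ATF4, the factor of the amino acid and unfolded protein responses, and SESN1, BBC3 and BTG2 are also known targets of FOXO factors, which PI3K and AKT signalling holds in check.

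Depth ranged from 12.6 to 52.3 M fragments a library. LINC00520 itself (the row linc-TBPL2-2) had 1122 and 1031 fragments in the transduced libraries, against 5, 6 and 2 in the untransduced ones. Along the time course that row stood at 1.59 CPM before tamoxifen, averaged 1.245 CPM in the 4 h pair, reached 14.7 CPM in the 12 h library and averaged 181.6 CPM in the 36 h pair. All 7 basal and epithelial markers were present in every group. COL1A2 and the endothelial CDH5 were at or near 0 FPKM in every library, while DCN, on the fibroblast list, ranged from 10.9 to 77.5 FPKM and CD14, on the immune list, from 4.47 to 15.5 FPKM. The 4 h pair agreed least: the median gene's chi-square statistic was 13.7 times its value under counting noise, against 4.65 for the 36 h pair and 1.32 to 2.03 for pairs in the over-expression experiment.

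The promoter windows below are shown because p53 acts through a pair of 10-base motifs, and they show which of the 9 genes hold such a pair close to an annotated start. The windows are RefSeq's, from 250 bases before to 50 after a start (GRCh38.p14; the expression rows use hg19), and were found for 8 of the 9 genes, in 15 windows; RRM2B had no entry. A pair was counted with at most 2 mismatches in all and a spacer of up to 13 bases, and the motif reads the same on both strands. Capitals mark the pair in the first 2 windows and the single exact motif in the third.
MDM2, chr12:68808767-68809066, plus strand: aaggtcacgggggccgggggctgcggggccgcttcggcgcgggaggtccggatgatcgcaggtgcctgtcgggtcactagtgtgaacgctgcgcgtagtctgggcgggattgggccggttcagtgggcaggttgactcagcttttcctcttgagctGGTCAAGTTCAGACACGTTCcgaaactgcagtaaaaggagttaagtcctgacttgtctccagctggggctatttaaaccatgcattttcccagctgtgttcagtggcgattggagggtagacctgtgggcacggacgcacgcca
FAS, chr10:88991181-88991480, plus strand: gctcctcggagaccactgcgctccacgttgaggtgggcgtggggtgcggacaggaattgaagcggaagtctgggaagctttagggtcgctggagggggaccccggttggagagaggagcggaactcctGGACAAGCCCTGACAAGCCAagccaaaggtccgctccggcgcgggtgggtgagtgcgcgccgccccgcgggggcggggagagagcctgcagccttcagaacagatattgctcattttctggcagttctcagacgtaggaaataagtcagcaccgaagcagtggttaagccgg
SESN1, chr6:109008939-109009238, minus strand: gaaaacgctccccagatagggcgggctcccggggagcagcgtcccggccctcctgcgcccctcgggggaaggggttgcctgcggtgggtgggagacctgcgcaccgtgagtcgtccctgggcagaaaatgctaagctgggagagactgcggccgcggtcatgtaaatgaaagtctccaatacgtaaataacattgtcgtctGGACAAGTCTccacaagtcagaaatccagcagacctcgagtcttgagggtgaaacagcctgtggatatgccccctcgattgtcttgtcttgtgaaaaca
MDM2 and FAS each held a pair with no spacer and 2 mismatches, in 2 of the 4 MDM2 windows, which overlap, and in 1 of the 3 FAS windows. A pair by this rule was found in 2.93% of all 35116 windows, and one with no spacer in 0.285%. SESN1 held 1 exact motif, and the FAS window shown held an exact motif within its pair. An exact motif was found in 6.63% of all windows, and in any window of 8.06% of genes. For SESN2, BTG2, TP53I3, GDF15 and BBC3 the windows held neither, which says only that the motif is not in these windows.

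Levels between genes were compared per length, in deposited FPKM. In untransduced parental cells the 9 genes spanned 5.49 to 73.9 FPKM. MDM2 (73.9 ± 0.142 FPKM, SD, n = 3) and TP53I3 (73.4 ± 2.35) stood highest, and their libraries overlapped. RRM2B (47.3 ± 1.75) and the FAS and STAMBPL1 row (46.1 ± 0.797) came next and also overlapped. GDF15 (28.6 ± 1.31) and SESN1 (26.7 ± 0.618) did not overlap, but differed by little more than the larger SD. BTG2 (12.5 ± 0.199), SESN2 (10.0 ± 0.534) and BBC3 (5.49 ± 0.0983) followed, without overlap. MDM2 was above 91.1% of the genes tested in these cells.

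In MCF10A-Src cells at 0 h MDM2 had 129.4 FPKM, more than any of the other 8 and more than 97.3% of the genes tested. RRM2B had 41.4, the FAS and STAMBPL1 row 37.3, TP53I3 30.5 and SESN1 20.3 FPKM. BTG2 had 11.02, GDF15 5.80, SESN2 5.07 and BBC3 2.61 FPKM, each from 1 library. The 2 experiments were scaled separately by the authors, so no level is compared between them.

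The first comparison set LINC00520-transduced against untransduced MCF10A. A gene passed the test, or was called, at an adjusted p under 0.05 by the quasi-likelihood test of edgeR over all genes. All 9 genes passed, 7 lower and 2 higher. For each of them the libraries of the groups did not overlap, but how often this held over all genes was not counted. Called genes were 50% of the 12790 tested in this comparison (24.8% lower and 25.2% higher), so being called does not set these genes apart. The median log2 fold change of the 9 was -0.28, against 0.00 for all genes tested. BBC3 and GDF15 changed most, the apoptosis gene to 0.522 and the stress cytokine to 0.579 of the untransduced level. In bulk RNA, fewer expressing cells and less RNA per cell cannot be told apart.

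MDM2, which marks p53 for degradation, had 289.8 and 278.6 CPM in transduced libraries, against 306.8, 307.3 and 299.5 CPM in untransduced ones (CPM, fragments relative to the TMM-scaled library size). The groups lay side by side without overlap. The change was the smallest of the 9 in size, at -0.10 on the log2 scale (SE 0.0295, edgeR adjusted p = 0.00679). It was no longer past the test without LINC00520 replicate 2 (edgeR adjusted p = 0.118), nor with limma on FPKM (adjusted p = 0.087), and the authors' deposited table did not call it.

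GDF15, a secreted stress-induced cytokine of the TGF-beta family, had 17.9 and 18.3 CPM in transduced libraries, against 30.1, 32.9 and 30.9 CPM in untransduced ones. Both transduced libraries lay well below all 3 untransduced ones. It fell 1.73-fold (log2 -0.79, SE 0.0601, edgeR adjusted p = 1.16e-10), lower than 98.3% of the genes tested.

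Of the genes that lead to cell death, BBC3, which encodes the BH3-only protein PUMA, had 4.199 and 4.59 CPM in transduced libraries, against 8.42, 8.56 and 8.20 CPM in untransduced ones. These values rest on 102 and 103 fragments against 302, 257 and 186. BBC3 fell 1.91-fold (log2 -0.94, SE 0.108, edgeR adjusted p = 1.15e-07), more than any of the other 8. The row of FAS, a death receptor, moved the other way, with 130.4 and 127.7 CPM in transduced libraries, against 115, 118 and 118.9 CPM in untransduced ones. That rise of 0.14 on the log2 scale (SE 0.0327, edgeR adjusted p = 0.00102) cannot be assigned to FAS rather than STAMBPL1.

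The sestrins are stress proteins that restrain the growth kinase mTORC1. SESN1 had 62.6 and 54.4 CPM in transduced libraries, against 70.0, 73.1 and 70.9 CPM in untransduced ones. SESN2 had 28.3 and 29.3 CPM in transduced libraries, against 33.2, 36.9 and 35.5 CPM in untransduced ones. Both fell, with log2 fold changes of -0.28 (SE 0.0478) for SESN1 and -0.29 (SE 0.0566) for SESN2 (edgeR adjusted p = 2.84e-05 and 1.87e-04). The 2 transduced libraries differed from each other more for SESN1 than for any other of the 9 genes, by 1.15-fold. SESN1 had -0.19 without LINC00520 replicate 2 and -0.39 without replicate 1, against -0.31 and -0.26 for SESN2, and both genes passed in each case.

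RRM2B, the p53-induced subunit of ribonucleotide reductase that supplies nucleotides for DNA repair, had 198.5 and 190.3 CPM in transduced libraries, against 223.5, 236.8 and 228.5 CPM in untransduced ones. It fell by 0.24 on the log2 scale (SE 0.0322, edgeR adjusted p = 1.25e-06). TP53I3, an oxidoreductase linked to reactive oxygen, had 102.4 and 100.8 CPM in transduced libraries, against 85.1, 80.7 and 83.3 CPM in untransduced ones. It rose by 0.29 on the log2 scale (SE 0.0357, edgeR adjusted p = 3.12e-07). FAM228B overlaps TP53I3 on the other strand in the GENCODE annotation, ACTA2 overlaps FAS, and a carboxypeptidase gene whose symbol is also CPM overlaps MDM2. The strand setting of the counting was not given, so reads from such partners cannot be separated.

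BTG2, an antiproliferative gene that promotes removal of mRNA tails, had 25.9 and 26.3 CPM in transduced libraries, against 33.3, 34.3 and 33.7 CPM in untransduced ones. The groups were tight and apart. It fell by 0.37 on the log2 scale (SE 0.0528, edgeR adjusted p = 2.84e-06). The authors' deposited table called 6 of the 9 genes at q under 0.05: GDF15, SESN1, SESN2, BBC3 and BTG2 lower and TP53I3 higher. The share of all genes that the authors called was not counted, here or in the later comparisons.

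**Figure D1:**
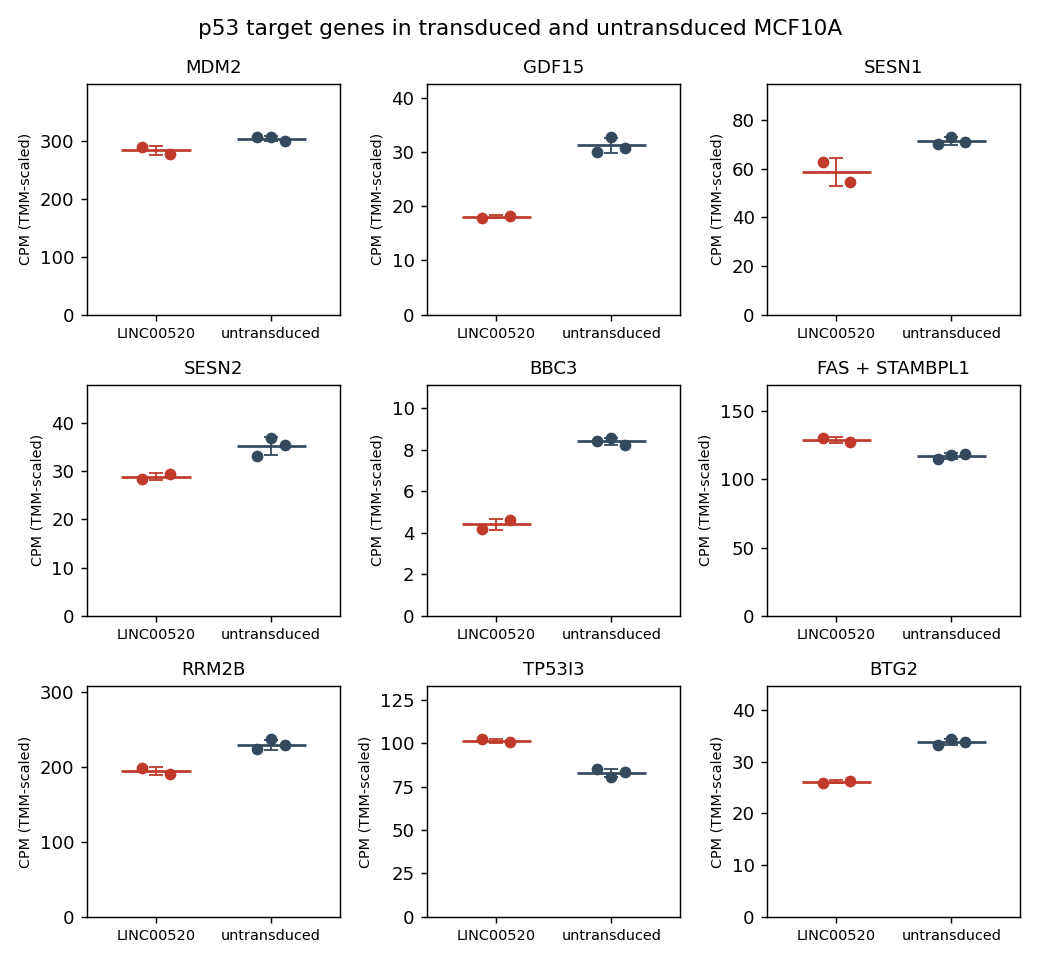
Each panel shows 1 gene in CPM after TMM scaling (vertical axis, from 0) for 2 LINC00520-transduced and 3 untransduced libraries; points are libraries, bars the mean and SD. GDF15 and BBC3 sit furthest below the untransduced libraries, and TP53I3 and the FAS and STAMBPL1 row sit above them.

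The wider set of p53 targets was read from a list of 32 other genes, all of which were tested. Of these, 15 were lower and 4 higher in transduced cells, with a median log2 fold change of -0.09 (24.8% of all genes were lower and 25.2% higher), and 13 were not called. CYFIP2, a WAVE complex subunit, had 41.9 CPM in transduced and 66.0 CPM in untransduced cells on average (log2 -0.66, SE 0.0436, edgeR adjusted p = 9.91e-12). The cyclin gene CCNG1 had a log2 fold change of -0.40, the stress gene TP53INP1 -0.58 and the row of TRIM22, shared with OR56B1, -0.31. CDKN1A, the cell cycle inhibitor p21 and the best known p53 target, named here after its values were seen, averaged 232 ± 11.6 CPM in transduced (SD, n = 2) and 260.2 ± 4.83 CPM in untransduced cells (SD, n = 3; log2 -0.17, edgeR adjusted p = 1.4e-04). Of 7 tested p53 regulators and relatives 2 were lower and 0 higher: MDM4, the partner of MDM2, by -0.23 and the kinase HIPK2 by -0.11.

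Lists of ATF4 and FOXO targets were read in the same way, beside 24.8% of all genes lower and 25.2% higher. Of 12 tested ATF4 targets, GDF15 and SESN2 among them, 10 were lower and 1 higher, with a median of -0.33. DDIT4, an inhibitor of mTORC1, had a log2 fold change of -0.56, the asparagine synthetase ASNS -0.32 and the cystine transporter SLC7A11 0.45. Of 12 tested FOXO targets 8 were lower and 0 higher, with a median of -0.52; PDK4, a pyruvate dehydrogenase kinase, had -1.31, the repressor BCL6 -1.06, TXNIP -0.71 and KLHL24 -0.64. These counts and medians differed little under the other scalings, by at most 1 call in a list.

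In the time course the genes fell into different patterns. SESN1 dropped within 4 h and stayed low. GDF15 lay below its 0 h library at 4, 12 and 36 h, and this passed the test at 12 and 36 h only. BTG2 was lowest at 36 h, TP53I3 was higher at 36 h than at 0 h, and MDM2 and BBC3 were higher at 36 h than at 4 h. SESN2, RRM2B and the FAS and STAMBPL1 row passed no test between any 2 times with TMM scaling and all 6 libraries. The 0 h and 12 h groups have 1 library each, and their spread was taken from the 4 h and 36 h pairs. Several of the 6 tests between times share libraries.

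At 4 h against 0 h, 1 of the 9 genes passed the test, SESN1, while 6.24% of 15572 genes did (3.15% higher and 3.09% lower). Another 7 had negative log2 fold changes and TP53I3 a positive one, and the median of the 9 was -0.48, against 0.01 for all genes. SESN1 had 17.9 and 18.1 CPM at 4 h, against 54.2 CPM at 0 h. The pair at 4 h was nearly identical, and its mean lay 3.00-fold below the 0 h library (log2 -1.59, SE 0.192, edgeR adjusted p = 0.00527). GDF15 had 2.80 and 1.87 CPM at 4 h, against 5.78 CPM at 0 h, and BBC3 had 1.505 and 2.16 CPM at 4 h, against 4.05 CPM at 0 h. Both missed the threshold (log2 -1.32 and -1.13, SE 0.389 and 0.335, edgeR adjusted p = 0.0886 and 0.0892), with 54 and 44 fragments for GDF15 at 4 h and 29 and 51 for BBC3. The authors' deposited table called GDF15, SESN1 and BBC3 lower at 4 h. MDM2 had 290.4 and 322.3 CPM at 4 h, against 426.7 CPM at 0 h (log2 -0.48, SE 0.185, edgeR adjusted p = 0.166).

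With 4 h replicate 1 left out, 3 genes passed at 4 h against 0 h (SESN1 and GDF15 lower, TP53I3 higher), and with replicate 2 left out 2 did (SESN1 and BBC3 lower). The number of all genes called then grew to 4288 without replicate 1 and 1959 without replicate 2, against 972 with both. Without the filter on low values GDF15 and BBC3 also passed (edgeR adjusted p = 0.00896 and 0.0389).

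At 12 h against 0 h, 2 of the 9 genes were lower and 0 higher, where 4.24% of all genes were called (3.04% higher and 1.2% lower). GDF15 had 1.20 CPM at 12 h (34 fragments), against 5.78 CPM at 0 h (330 fragments). This was its lowest level in the time course, 4.80-fold below 0 h (log2 -2.26, SE 0.499, edgeR adjusted p = 0.0476). SESN1 had 24.4 CPM at 12 h, against 54.2 CPM at 0 h (log2 -1.15, SE 0.232, edgeR adjusted p = 0.0334). With 1 of the 36 h libraries left out, SESN1 missed the threshold narrowly (edgeR adjusted p = 0.0526 without replicate 1 and 0.0533 without replicate 2). GDF15 was not past the test without scaling beyond the library total (edgeR adjusted p = 0.0625), and neither gene was with limma on FPKM (adjusted p from 0.0816 to 0.218). SESN2 was at its highest at 12 h, with 25.7 CPM, against 17.9 CPM at 0 h, and was not past the test (log2 0.52, SE 0.286, edgeR adjusted p = 0.372).

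At 36 h against 0 h, 3 of the 9 genes were lower and 1 higher, where 19.4% of all genes were called (9.99% higher and 9.36% lower). BTG2 had 11.5 and 8.92 CPM at 36 h, against 29.5 CPM at 0 h. Its 36 h libraries were the lowest of the time course and their mean lay 2.87-fold below 0 h (log2 -1.52, SE 0.231, edgeR adjusted p = 0.00382). SESN1 had 24.3 and 23.4 CPM at 36 h, close to its 12 h value, and remained 2.27-fold below 0 h (log2 -1.18, SE 0.194, edgeR adjusted p = 0.00538). GDF15 had 1.55 and 2.75 CPM at 36 h, 2.81-fold below 0 h (log2 -1.49, SE 0.407, edgeR adjusted p = 0.0391). TP53I3 had 56.4 and 53.4 CPM at 36 h, against 32.5 CPM at 0 h (log2 0.76, SE 0.209, edgeR adjusted p = 0.0401).

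The calls of GDF15 and TP53I3 at 36 h were near the threshold. Without 36 h replicate 1 neither passed (edgeR adjusted p = 0.215 and 0.179), and without 36 h replicate 2 TP53I3 did not (edgeR adjusted p = 0.133). GDF15 also missed it with DESeq2 (adjusted p = 0.107) and both did with limma on FPKM (adjusted p from 0.0681 to 0.157). SESN1 and BTG2 passed in all of these. The authors' deposited table called GDF15 and SESN1 lower and TP53I3 higher, and did not call BTG2.

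The comparison of 36 h with 4 h has 2 libraries on each side. Of the 9 genes 2 were higher and 1 lower, where 39.4% of all genes were called (18.8% higher and 20.5% lower). MDM2 had 448.6 and 496.5 CPM at 36 h, against 290.4 and 322.3 CPM at 4 h. Both late libraries were above both early ones and above the 0 h library, a 1.54-fold rise over 4 h (log2 0.62, SE 0.154, edgeR adjusted p = 0.0149). Against 0 h, MDM2 at 36 h was not past the test (log2 0.15, SE 0.189, edgeR adjusted p = 0.623). BBC3 had 3.86 and 4.65 CPM at 36 h, against 1.505 and 2.16 CPM at 4 h, so that it stood again near its 0 h level of 4.05 CPM. It rose 2.28-fold over 4 h (log2 1.19, SE 0.307, edgeR adjusted p = 0.0178). BTG2 had 11.5 and 8.92 CPM at 36 h, against 19.4 and 19.9 CPM at 4 h (log2 -0.93, SE 0.202, edgeR adjusted p = 0.00868).

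Without 36 h replicate 2 none of these 3 genes passed the test (edgeR adjusted p = 0.131 for MDM2, 0.0861 for BBC3 and 0.0941 for BTG2), with log2 fold changes of 0.55, 1.06 and -0.77, while without 36 h replicate 1 all 3 did. Without 4 h replicate 2 TP53I3 had a log2 fold change of 0.50, in place of 0.32 with both 4 h libraries (SE 0.167, edgeR adjusted p = 0.158). The count of all genes called was 3652 without replicate 2 and 3821 without replicate 1, against 6130 with both. The authors' deposited table called BBC3 higher and none of the other 8.

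The scaling of the libraries matters for every comparison with 36 h. Without scaling beyond the library total, the median of all genes at 36 h against 4 h was -0.29, in place of -0.04 with TMM, and 1861 genes were higher and 4823 lower, in place of 2930 and 3200. MDM2 then had 0.37 and was not past the test (edgeR adjusted p = 0.0726), and BBC3 stayed higher and BTG2 lower. For 36 h against 0 h the same change put the median of all genes at -0.43, in place of -0.08, with 1016 genes higher and 3740 lower, in place of 1556 and 1458. There TP53I3 had 0.41 and was not past the test (edgeR adjusted p = 0.16), MDM2 and BBC3 turned from small positive to small negative values, and the FAS and STAMBPL1 row was lower (log2 -0.73, edgeR adjusted p = 0.0261). Changes at 36 h are therefore relative to the TMM scale. At 36 h the summed FPKM of the fibroblast list was 59.0 to 78.4, against 19.2 to 21.8 at 4 h and 18.2 at 0 h, and that of the immune list 12.98 to 15.7, against 7.33 to 8.41 at 4 h and 5.01 at 0 h. DCN and CD14 made up most of these sums, 4 of 5 and 5 of 6 genes were under 1 FPKM at 36 h, and the part of these genes in the results was not tested.

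Between neighbouring times, 12 h against 4 h gave 0 of 9 calls by edgeR (1 gene, SESN2, at an unadjusted p under 0.05; 0 by DESeq2 and 0 by limma), where 4.6% of all genes were called (2.96% higher and 1.64% lower). Without 4 h replicate 1, SESN2 had a log2 fold change of 0.89 at 12 h against 4 h, in place of 0.65 with both 4 h libraries (SE 0.246, edgeR adjusted p = 0.194). With 36 h set against 12 h MDM2 was higher (log2 0.67, SE 0.194, edgeR adjusted p = 0.0442) and BTG2 lower (log2 -0.90, SE 0.236, edgeR adjusted p = 0.0338), where 20.9% of all genes were called (10.3% higher and 10.5% lower). SESN2 was also lower when 4 h replicate 1 or 2 was left out (log2 -0.55 and -0.53, edgeR adjusted p = 0.0278 and 0.033). Neither MDM2 nor BTG2 passed without 36 h replicate 1 or without 36 h replicate 2, nor with limma on FPKM. Without scaling beyond the library total the median of all genes was -0.33, MDM2 was not past the test (log2 0.36, edgeR adjusted p = 0.167), and SESN2 was lower (log2 -0.86, edgeR adjusted p = 0.0472) beside BTG2. The counts of all genes called at 36 h against 12 h were 2006 and 1544 without those libraries, against 3250 with both.

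SESN2, RRM2B and the FAS and STAMBPL1 row, which passed no test with TMM scaling and all 6 libraries, are given here in full. RRM2B had 199.6 CPM at 0 h, 141.7 and 177.3 at 4 h, 164.7 at 12 h, and 166.0 and 192.4 at 36 h. The FAS and STAMBPL1 row had 110.2 CPM at 0 h, 93.7 and 82.1 at 4 h, 87.6 at 12 h, and 82.9 and 87.2 at 36 h. SESN2 had 17.9 CPM at 0 h, 18.9 and 13.9 at 4 h, 25.7 at 12 h, and 17.3 and 17.8 at 36 h. The ranges at 4 h and 36 h overlapped for all 3. The SE of the change at 36 h against 4 h was 0.155 for the FAS and STAMBPL1 row, 0.172 for RRM2B and 0.21 for SESN2 on the log2 scale. Changes well above that size could be missed too: SESN1, at 0.40 with an SE of 0.168, was not called in this comparison. The ratio of SESN1 to SESN2 in FPKM was 4.01 at 0 h, 1.26 and 1.73 at 4 h, 1.24 at 12 h, and 1.83 and 1.73 at 36 h.

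**Figure D2:**
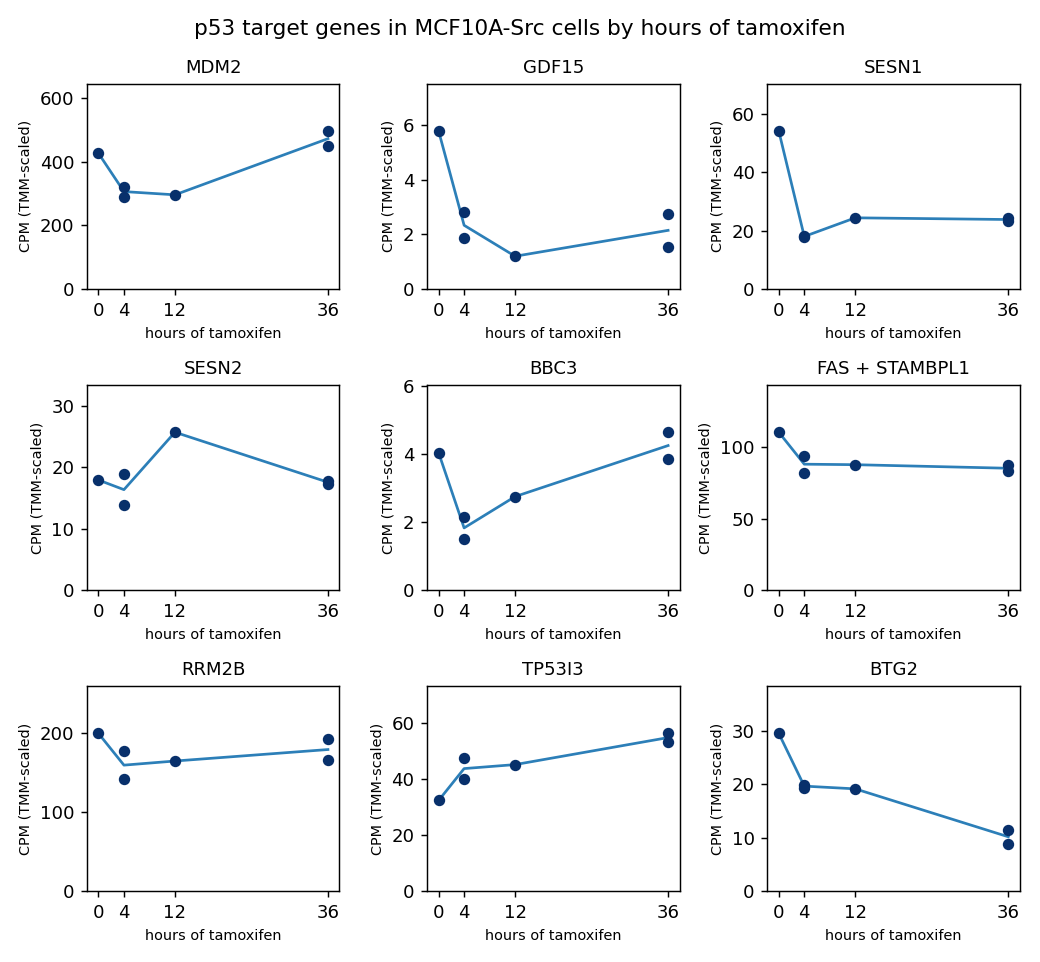
Each panel shows 1 gene in CPM after TMM scaling (vertical axis, from 0) against hours of tamoxifen; points are libraries and the line joins group means. SESN1 lies far below its 0 h library in both 4 h libraries, MDM2 and BBC3 stand higher at 36 h than at 4 h on the TMM scale, and BTG2 is lowest at 36 h.

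**Figure D3:**
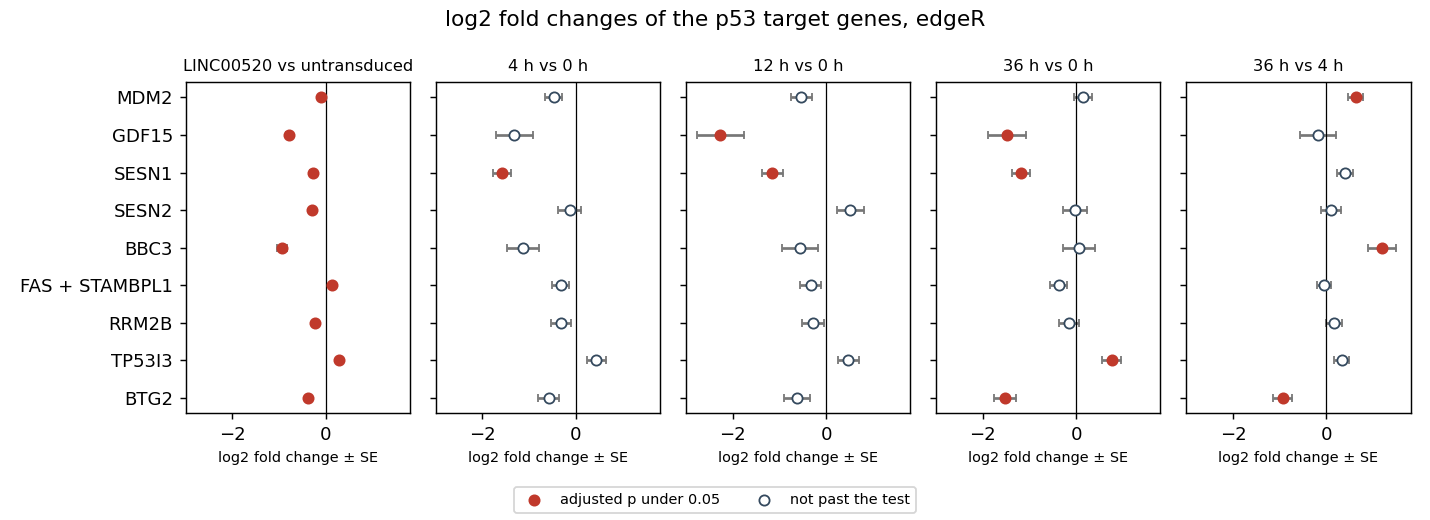
The log2 fold changes (horizontal axis) of the 9 genes with their standard errors in 5 comparisons; filled points passed edgeR's test at an adjusted p under 0.05. All 9 pass in the over-expression experiment, where the standard errors are smallest and 50% of all genes pass. In each of the 4 time-course comparisons shown 1 to 4 pass, where 4.24% to 39.4% of all genes do.

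The other p53 targets did not follow 1 pattern either. At 4 h against 0 h, 2 of 32 were higher and 1 lower (3.15% and 3.09% of all genes), with a median of 0.08: the kinase PLK2 rose by 1.84 (SE 0.221, edgeR adjusted p = 0.00527), the nuclease AEN rose by 1.16 and ANKRA2 had -1.36. Without scaling beyond the library total that median was -0.02, against -0.09 for all genes, which had 0.01 with TMM. In the 36 h to 4 h comparison 12 were lower and 3 higher, with a median of -0.51, against -0.04 for all genes, of which 20.5% were lower and 18.8% higher. C12orf5, the fructose bisphosphatase TIGAR, had 15.6 CPM at 36 h and 58.3 CPM at 4 h on average (log2 -1.90, SE 0.183, edgeR adjusted p = 2.53e-04). PLK2 had -1.76, CYFIP2 -2.22 and the AKT inhibitor PHLDA3 -1.997. Without scaling beyond the library total 17 were lower and 1 higher. CDKN1A passed no test between times, with 76.3 CPM at 0 h and means of 97.8 CPM at 4 h, 106.6 at 12 h and 91.8 at 36 h. TP63, the p53 family member of basal epithelium, was the 1 called of 7 regulators and relatives at 36 h against 4 h, with 33.5 CPM at 36 h and 87.6 CPM at 4 h on average (log2 -1.39, SE 0.168, edgeR adjusted p = 7.08e-04).

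At 4 h against 0 h, 4 of 11 tested FOXO targets were lower and 0 higher (3.09% and 3.15% of all genes), with a median of -0.76. PDK4 had -2.47, CCNG2 -1.80, KLF9 -1.67 and KLHL24 -1.58. Between 36 h and 4 h, where 18.8% of all genes were higher and 20.5% lower, 7 of 11 were higher and 0 lower, with a median of 1.06, CCNG2 rising by 4.40, KLF9 by 4.86, KLHL24 by 2.82 and BCL6 by 1.73; without scaling beyond the library total 1 was lower. Of the members that are also known FOXO targets, BBC3 had a negative value at 4 h against 0 h and rose at 36 h against 4 h, SESN1 fell at 4 h and was not past the test at 36 h against 4 h (log2 0.40, SE 0.168, edgeR adjusted p = 0.0915), and BTG2 fell at 36 h. These comparisons share the 4 h libraries. Of 14 tested ATF4 targets 6 were lower and 4 higher at 36 h than at 4 h, beside the same shares of all genes, with a median of -0.16; their median at 4 h against 0 h was -0.11. SLC3A2 had -1.99, ASNS -2.16, PHGDH -1.95 and VLDLR 3.43, and GDF15 and SESN2 were not called.

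**Figure D4:**
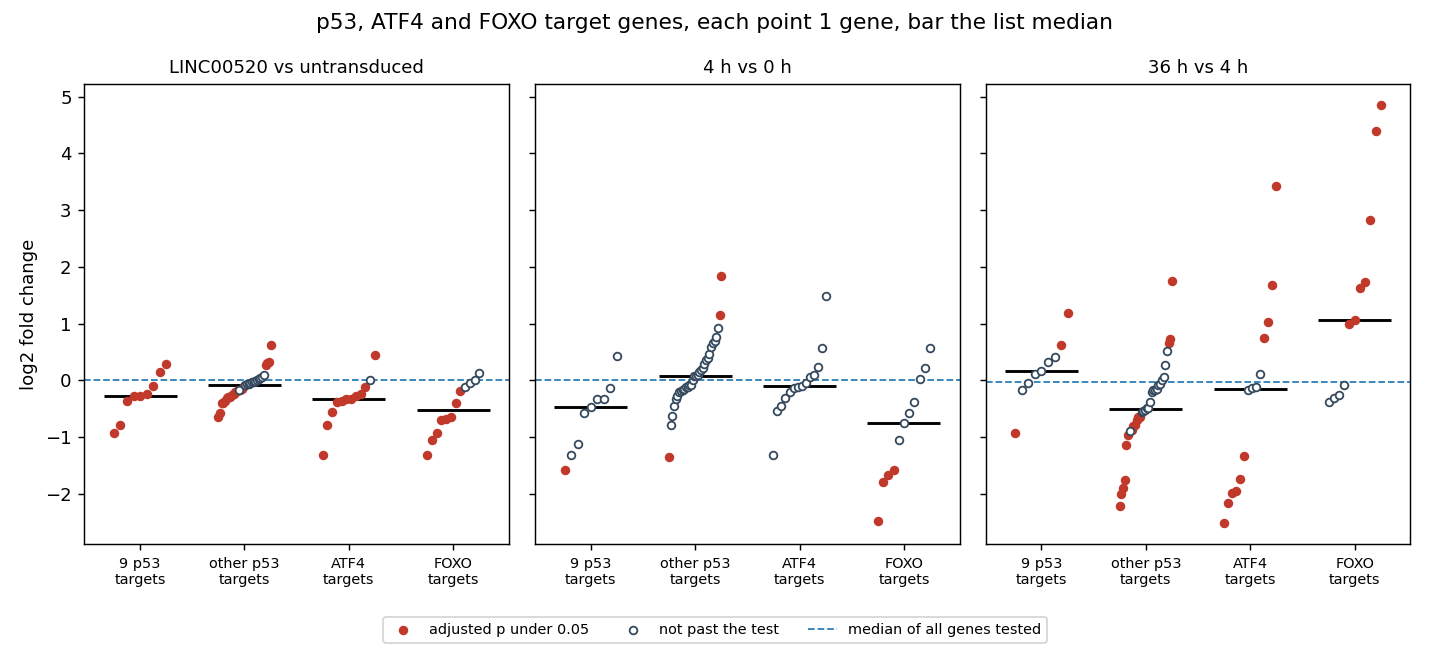
The log2 fold changes (vertical axis) of the 9 genes and of 3 lists in 3 comparisons, with 1 point for each gene, filled where edgeR's adjusted p is under 0.05, a bar at the list median and a dashed line at the median of all genes tested. The 9 genes lie mostly below the line for LINC00520 against untransduced cells and at 4 h against 0 h, and on both sides of it at 36 h against 4 h.

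Over the 6 time-course libraries the 9 genes varied with one another to different degrees, given here as Pearson correlations of log2(CPM + 1) without a test. MDM2 and BBC3 went together most (r = 0.91), then GDF15 and the FAS and STAMBPL1 row (r = 0.88). TP53I3 ran opposite to the FAS and STAMBPL1 row (r = -0.91) and to BTG2 (r = -0.89). The libraries come from 4 times and share scaling, and the r of GDF15 and BBC3 rests on few fragments. The FAS and STAMBPL1 row ranged over only 0.42 on that scale. Its single 0 h library stood at 110.2 CPM and the later ones between 82.07 and 93.75 CPM, so its r leans on that library. Among 4028 or 4029 other single-symbol genes that ranged over at least 1 on that scale, those most like MDM2 were ZNF184 (r = 0.998), FGD4 and PPP2R5A, with 76 genes above an r of 0.95. Among those most like BBC3 were KIAA1712 (r = 0.987) and C6orf182 (r = 0.984). Among those most like BTG2 was CDKL1 (r = 0.988), and TP53I3 was most like UGCG, TOP1MT and WTAP (r from 0.986 to 0.992). SESN1 was most like DMBT1, VAV3 and CXXC5 (r from 0.961 to 0.977), and GDF15 most like AREG, HES7 and PRKAB2 (r from 0.963 to 0.974). SESN2 was most like FHDC1, SLC4A3 and FHOD1 (r from 0.974 to 0.988), and the FAS and STAMBPL1 row most like SAMD5, GLCCI1 and TOB1 (r from 0.959 to 0.979). RRM2B had no gene above 0.95; PPFIBP2 came closest (r = 0.859), then ZNF436 and PARD6B.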

How the data were processed

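PolyA RNA libraries of MCF10A and MCF10A-Src cells were analysed; 11 of the 13 samples were matched to rows of the deposited tables by condition name, and the files' replicate index served as a name. A further 7 libraries in those tables match no label and were not used. CASAVA 1.4, TopHat, hg19 and Cuffdiff are named in the submitters' processing notes; the versions of the last 2 tools, the annotation and the strand setting are not given in the sources used here. Per the file headers, the authors deposited an estimated count of fragments before scaling and FPKM scaled by Cuffdiff. The calls tables give q-values as deposited, and the over-expression table a log2 fold change by the authors. The authors' time-course fold column, as deposited, is a signed score with sizes beyond any log2 ratio, and gave directions alone.

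Estimated counts were rounded (92.4% to 99.9% were whole). Genes entered with FPKM of at least 1 in at least 2 libraries (over-expression) or 1 library (time course) and status OK throughout, 12790 and 15572 genes. Counts were TMM-scaled and tested with edgeR's quasi-likelihood (QL) test, 2-sided, with 1 coefficient per group and all libraries of an experiment in 1 fit; p-values were adjusted by Benjamini-Hochberg over all genes tested, with a threshold of 0.05. The standard error is the log2 fold change over the square root of F. The common coefficient of variation was 0.0249 (3 residual degrees of freedom) and 0.162 (2). The labels do not say that replicates were separate cultures, so p-values measure spread among libraries that may be technical. The test was checked on simulated data for LINC00520 against untransduced cells and 36 h against 4 h only, with the same spread set for every gene. Comparisons that use the single 0 h or 12 h library were not simulated. The deviations of same-numbered libraries were nearly uncorrelated between groups, with a Pearson r of -0.0592 (LINC00520 and untransduced) and 0.104 (36 h and 4 h). Every replicate pair differed by more than counting noise, so none was merged.

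The 9 genes and all lists were chosen with earlier results of these data known. Named from the other lists were up to 4 called genes with the smallest p in 3 comparisons. For each of the 9 genes the 3 single-symbol genes with the highest correlation were named, and some of these are not reported here. Alternatives were other scalings, no filter, DESeq2, limma on log2(FPKM + 1) and log2(FPKM + 0.1), leaving out replicates and a replicate block. Python 3.11.15, DESeq2 1.42.0, limma 3.58.1, edgeR 4.0.16 and R 4.3.3 were used.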

Additional observations from a re-analysis of the deposited data

How the results depend on the processing

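The number of the 9 genes called for LINC00520 against untransduced cells was 9, and 8 or 9 under the alternatives run (8 to 9 with 1 library left out). Of all genes 6396 were called in that comparison, and from 4949 (DESeq2) to 7172 (no filter on low values) under the alternatives that kept every library. In the time course the number of the 9 genes called depended more on the processing. At 4 h against 0 h it was 1, and 3 with no filter on low values; with 1 library left out it was 1 to 3. At 12 h against 0 h it was 2, then 1 without scaling beyond the library total, 0 and 0 with limma at either pseudocount, and 1 to 2 with 1 library left out. At 36 h against 0 h it was 4, then 2 and 2 with limma, and 2 to 4 with 1 library left out. At 36 h against 4 h it was 3, and 0 to 4 with 1 library left out. At 12 h against 4 h it was 0, and 0 to 1 with 1 library left out. At 36 h against 12 h it was 2 (1 higher, 1 lower), 2 without scaling beyond the library total (0 higher, 2 lower, with MDM2 lost and SESN2 gained), 0 and 0 with limma, and 0 to 3 with 1 library left out. The cause was not tested.

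Over all genes, calls at 4 h against 0 h numbered 972, against 2794 with no filter and 180 and 158 with limma; at 12 h against 0 h 661, against 1717, 223 and 252; at 12 h against 4 h 716, against 1768, 43 and 55. At 36 h against 0 h they numbered 3014, against 5066, 1554 and 1320, and 4756 without scaling beyond the library total; at 36 h against 12 h 3250, against 1090 and 648 with limma. With 1 library left out the highest counts were 2708 (12 h against 0 h), 6058 (36 h against 0 h), 3128 (12 h against 4 h) and 6407 (36 h against 12 h), and the lowest at 36 h against 0 h was 1923.

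Signs turned only for genes that were not called, among the alternatives run. For SESN2 at 36 h against 0 h the log2 fold change was 0.041 with RLE, 0.0411 with DESeq2, and 0.0436 and 0.051 with limma. For the FAS and STAMBPL1 row it was 0.0012 with RLE and DESeq2 (36 h against 4 h), 0.000505 with RLE and 0.000525 with DESeq2 (12 h against 4 h), 0.0197 and 0.0203 with limma (12 h against 4 h), and 0.00072 with RLE and 0.00065 with DESeq2 (36 h against 12 h). For SESN1 at 36 h against 12 h it was 0.0082 with RLE, 0.0083 with DESeq2, and 0.0189 and 0.0207 with limma. Without scaling beyond the library total it was -0.21 for MDM2 and -0.29 for BBC3 (36 h against 0 h), -0.16 for SESN2 and -0.0898 for RRM2B (36 h against 4 h), 0.0081 for MDM2, 0.0479 for the FAS and STAMBPL1 row and 0.0174 for BTG2 (12 h against 4 h), and -0.19 for RRM2B and -0.0315 for TP53I3 (36 h against 12 h). With 1 library left out it ranged from -0.37 to 0.0714 for SESN2 (4 h against 0 h), -0.0501 to 0.0156 for SESN2 and -0.0663 to 0.20 for BBC3 (36 h against 0 h), and -0.59 to 0.25 for GDF15, -0.0558 to 0.34 for SESN2 and -0.0926 to 0.0511 for the FAS and STAMBPL1 row (36 h against 4 h). At 12 h against 4 h it ranged from -0.12 to 0.0575 for MDM2, -0.0697 to 0.0934 for the FAS and STAMBPL1 row, -0.11 to 0.25 for RRM2B, -0.0724 to 0.20 for TP53I3 and -0.0579 to 0.0105 for BTG2.

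The fits with the replicate number as a block used only replicates 1 and 2 of the 2 groups compared. For LINC00520 against untransduced cells 9 of the 9 genes and 5481 of all genes were then called. Without a block these same libraries gave 5709 of all genes, and all libraries gave 6396. At 36 h against 4 h the block fit called 3 of the 9 and 6453 of all genes, against 6130 with all 6 libraries and no block. No call of the 9 genes changed from the main fits. The files' replicate index is a name and the check of same-numbered libraries gave no pairing. GDF15 and BBC3, with fewest fragments, are the least precise of the 9 in the time course. Where a left-out library leaves a group with 1, that library is assumed to vary like the remaining pairs.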
